A study of Caenorhabditis elegans with 6 samples.

Results

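The dao genes of Caenorhabditis elegans (the name stands for dauer or aging overexpressed) were examined in worms with normal insulin signalling, with low insulin signalling, and with low insulin signalling and daf-16 deleted. Members were taken by gene name from the RPKM tables (reads scaled to the exon length of the gene and to the mapped reads of the library), and all 5 named members, dao-2, dao-3, dao-4, dao-5 and dao-6, were present among 20661 genes. The strains were daf-16(-);daf-2(-), which carries the mgDf50 deletion of daf-16 together with daf-2(e1370), then daf-2(-), which carries e1370 alone, and WT (N2). Both mutant strains carry e1370, a reduction-of-function allele of the insulin receptor gene, and daf-16(-);daf-2(-) is also called the double mutant. RNA was sequenced from 2 libraries per strain, 6 in all, made from mixed-stage cultures fed OP50 bacteria at 20 °C. A mixed-stage culture holds embryos, larvae and adults together, so fewer cells of a type and less RNA per cell cannot be told apart in these values. The labels do not say whether the replicates came from separate cultures, so the p-values measure the spread between these libraries, which may be technical.

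DAF-2 is the insulin/IGF-1 receptor of the worm, and its signalling keeps the FOXO transcription factor DAF-16 out of the nucleus. When the signalling is low, DAF-16 enters the nucleus and promotes long life, stress resistance and entry into dauer, an arrested larval stage that outlasts poor conditions. The dao genes were named from transcripts found to be abundant in dauer larvae or in ageing adults. They are not a family by sequence. DAO-3 is a relative of the mitochondrial methylenetetrahydrofolate dehydrogenase and cyclohydrolase, which passes one-carbon units along the folate cycle, and DAO-5 is the worm relative of the human nucleolar protein Nopp140, which acts where ribosomal RNA is made. No function is given here for dao-2, dao-4 and dao-6.

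The genes lie on 4 chromosomes of the WBcel235 annotation, a later build than the WS230 genome to which the reads were aligned. The gene dao-2 (WBGene00000928, M03A1.7, listed by RefSeq as dbd-2) spans 4562950 to 4563461 on the plus strand of chromosome II. On chromosome X, dao-3 (WBGene00000929, K07E3.3) spans 8084210 to 8086550 on the minus strand, and dao-4 (WBGene00000930, ZC373.6) spans 10075288 to 10076357 on the plus strand. The longest of the 5, dao-5 (WBGene00000931, C25A1.10), has 3158 exon bases between 10187546 and 10190896 on the minus strand of chromosome I. The gene dao-6 (WBGene00000932, T05G5.12) spans 9735263 to 9736201 on the minus strand of chromosome III. All 5 code for proteins.

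The strain labels were checked against daf-16 and its best known target. The RPKM of daf-16 was 6.44 and 4.6 in daf-16(-);daf-2(-), 25.16 and 22.37 in daf-2(-), and 24.86 and 29.36 in WT, and reads from outside the deletion are not separated in the tables. The superoxide dismutase gene sod-3 was 4.56 higher on the log2 scale in daf-2(-) than in WT and 5.57 lower in the double mutant than in daf-2(-). The step between the lowest RPKM values put the depth at about 9420000 to 15540000 mapped reads a library, with the fewest in daf-2(-) replicate 2, and this estimate is rough. All genes also shifted between the strains: over the 14395 genes averaging 1 RPKM or more, the median log2 fold change was -0.28 in daf-2(-) against WT, 0.34 in the double mutant against daf-2(-), and 0.10 in the double mutant against WT.

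Differences between strains were tested by fitting log2(RPKM + 1) of all 6 libraries together in limma. A change was called where limma's p, before adjustment, was no more than 0.05 and the strains differed by a fold of 2 or more, and the Benjamini-Hochberg adjusted p over all 20661 genes is given beside it. The added 1 RPKM makes the fold changes of low genes smaller. In daf-2(-) against WT, 2 of the 5 dao genes (dao-3 and dao-6) were higher and 1 (dao-5) was lower, where 4.84% of all genes were called higher and 7.78% lower. In daf-16(-);daf-2(-) against daf-2(-), 1 (dao-5) was higher and 2 (dao-3 and dao-6) were lower, where 15.8% of all genes were called higher and 5.65% lower. The same 3 genes passed at the adjusted p in each of these comparisons, where 11.7% and 21% of all genes did in either direction. In the double mutant against WT, 0 of the 5 were called by limma, where 2.16% of all genes were called (1.42% higher, 0.736% lower, and 0.155% in all at the adjusted p). There 2 genes (dao-2 and dao-3) had an unadjusted p under 0.05, as 19.2% of all genes had. Baggerly's test, a test on proportions, was run as an alternative on each gene's share of the summed RPKM of a library, as no read counts were available. With 2 libraries a strain it has little power, so a gene that it did not call is not shown to be unchanged. It also called 0 of the 5 between these strains, and 14 higher and 7 lower of all 20661 genes. The first 2 comparisons share the daf-2(-) libraries, so they are not separate evidence of a direction.

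**Figure D1:**
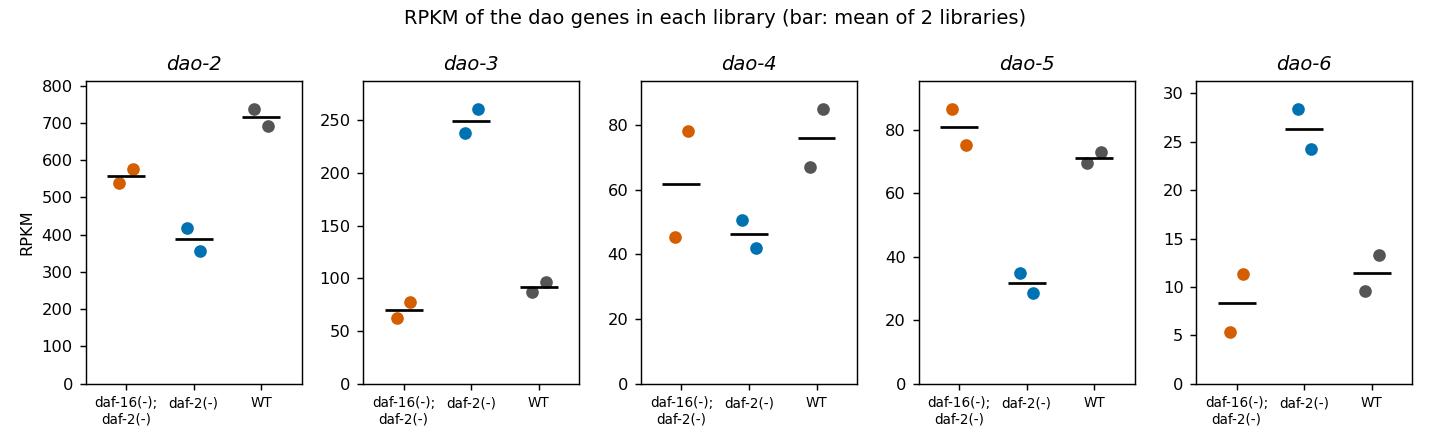
RPKM of dao-2, dao-3, dao-4, dao-5 and dao-6 (vertical axes, each from 0 on its own scale) in daf-16(-);daf-2(-), daf-2(-) and WT. Each point is 1 library and each bar the mean of 2 libraries. For dao-3 and dao-6 both daf-2(-) libraries stand above the libraries of the other strains, and for dao-2 and dao-5 both stand below them.

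The folate enzyme gene dao-3 carried the largest change of the 5. It had 62.8 and 77.86 RPKM in daf-16(-);daf-2(-), 237.61 and 260.94 RPKM in daf-2(-), and 87.36 and 96.52 RPKM in WT. Both daf-2(-) libraries stood above all 4 others, and both double mutant libraries stood below both WT libraries. The log2 fold change was 1.43 (SE 0.15, limma adjusted p = 0.00347) in daf-2(-) against WT, 2.71 times the WT mean. It was -1.82 (SE 0.15, limma adjusted p = 0.00102) in the double mutant against daf-2(-). Against WT the double mutant value was -0.39 (SE 0.15, limma adjusted p = 0.237), with a 95% interval of -0.75 to -0.03. Both calls of dao-3, by the unadjusted p and the fold, were kept under every alternative that was run.

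Ranked by RPKM within a library, dao-3 stood at places 2352 and 2069 in daf-16(-);daf-2(-), at places 715 and 651 in daf-2(-), and at places 1612 and 1573 in WT. Ranks do not depend on how libraries are scaled to each other. Within-library ratios do not where each library is scaled by a single factor, but quantile normalization can change them. The ratio of dao-3 to dao-2 was 0.117 and 0.135 in the double mutant, 0.567 and 0.732 in daf-2(-), and 0.118 and 0.14 in WT. The highest ratio outside daf-2(-) was thus far below the lowest within it, while the other strains overlapped.

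The list of folate one-carbon genes holds 17 genes beside dao-3, and its members did not share one direction. In daf-2(-) against WT, 1 of the 17 was higher and 3 were lower, with a median log2 fold change of -0.10 beside -0.28 for all genes. In daf-16(-);daf-2(-) against daf-2(-), 3 were higher and 2 were lower, with a median of 0.23 beside 0.34 for all genes. Between the double mutant and WT, 0 of the 17 were called by limma, where 2.16% of all genes were, and 0 by Baggerly's test. Of the whole list of 18, 4 had an unadjusted limma p under 0.05, dao-3 among them, where 19.2% of all genes had one. The summed RPKM of the whole list, dao-3 included, was 2380 and 2660 in the double mutant, 2650 and 2580 in daf-2(-), and 2450 and 2520 in WT. Within these sums dao-3 alone gave 237.61 and 260.94 RPKM in daf-2(-) and 87.36 and 96.52 RPKM in WT. The order of the sums therefore does not show a change of the other 17 genes.

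The member that was called on the same side as dao-3 in both comparisons was atic-1 (C55F2.1), the enzyme that uses formyl-folate in the last steps of purine synthesis. It had 60.46 and 84.21 RPKM in daf-16(-);daf-2(-), 180.87 and 164.67 RPKM in daf-2(-), and 73.75 and 79.24 RPKM in WT. Both daf-2(-) libraries lay above the others, and the other strains overlapped. The log2 fold changes of atic-1 were 1.16 in daf-2(-) against WT (SE 0.18, limma adjusted p = 0.0091) and, in the double mutant against daf-2(-), -1.26 (SE 0.18, limma adjusted p = 0.00277). On the other side were folt-1, a folate transporter, and mtrr-1, methionine synthase reductase, which restores the enzyme that makes methionine from methyl-folate. In daf-2(-) against WT, folt-1 was 1.49 lower (log2 fold change -1.49, limma adjusted p = 0.0133) and mtrr-1 1.21 lower (-1.21, limma adjusted p = 0.00766). They were higher in the double mutant than in daf-2(-), by 1.27 (limma adjusted p = 0.0111) for folt-1 and by 1.40 (limma adjusted p = 0.00207) for mtrr-1. The other calls were gcsh-1, a glycine cleavage carrier protein, at -1.10 in daf-2(-) against WT, and dhfr-1, dihydrofolate reductase, at 1.08 in the double mutant against daf-2(-). With the libraries rescaled to equal median ratios the count of lower genes in daf-2(-) against WT was 1, and the count of higher genes in the double mutant against daf-2(-) was 0.

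The genes next to dao-3 on the X chromosome were measured as well. K07E3.4, a relative of formyltetrahydrofolate synthetase and the remaining called member of the folate list, lies 191 bases from dao-3 on the same strand, and vem-1, a membrane-associated progesterone receptor relative, lies 1002 bases away on the other side, also on the same strand. K07E3.4 had 64.37 and 72.12 RPKM in daf-16(-);daf-2(-), 147.42 and 142.98 RPKM in daf-2(-), and 66.15 and 83.99 RPKM in WT. It was 0.95 higher on the log2 scale in daf-2(-) than in WT, under the 2-fold limit (limma adjusted p = 0.0104), and had -1.08 in the double mutant against daf-2(-) (limma adjusted p = 0.00295), a value that was -1.0 and no longer called without double mutant replicate 1. The values of vem-1 were 69.68 and 76.16 RPKM in the double mutant, 168.26 and 171.29 RPKM in daf-2(-), and 72.13 and 89.21 RPKM in WT. Its log2 fold changes were 1.07 in daf-2(-) against WT (limma adjusted p = 0.00689) and -1.21 in the double mutant against daf-2(-) (limma adjusted p = 0.00205), and the value of 1.07 became 0.92, under 2-fold, without WT replicate 1. In all 3 genes of this stretch both daf-2(-) libraries were the highest of the 6. The share of all genes with this order was not counted. Libraries did not overlap, in either direction, for 64.5% of all genes in daf-2(-) against WT. The share was 63.2% in the double mutant against daf-2(-).

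**Figure D2:**
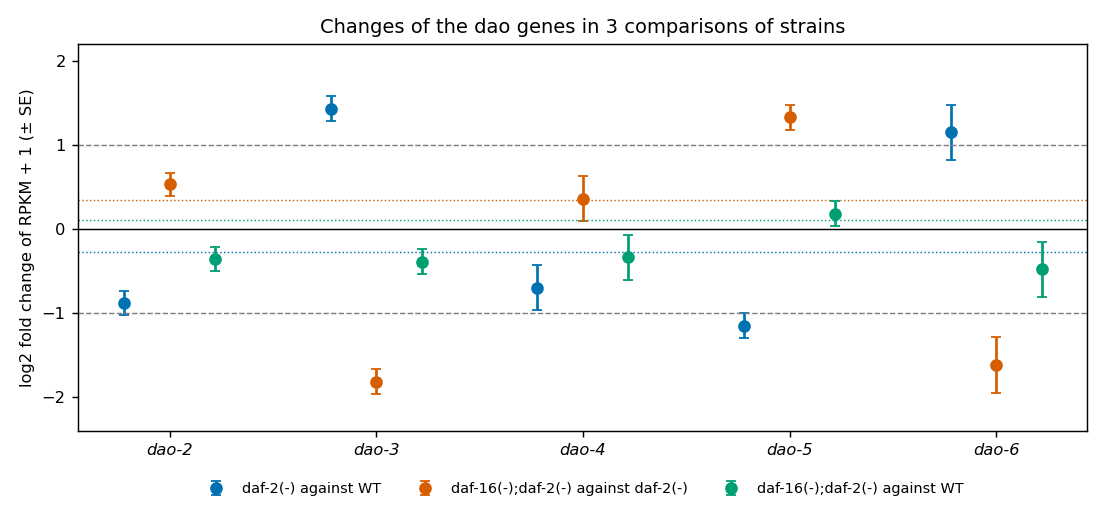
Log2 fold change of RPKM + 1 (vertical axis, error bars SE from limma) of the 5 dao genes in daf-2(-) against WT, daf-16(-);daf-2(-) against daf-2(-), and the double mutant against WT. Dashed lines mark a fold of 2 and dotted lines the median of all genes in the comparison of the same colour. The genes dao-3 and dao-6 lie on opposite sides of 0 from dao-5 in the first 2 comparisons, and no gene passes a dashed line in the last.

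The nucleolar gene dao-5 changed in the opposite direction. It had 86.77 and 75.36 RPKM in daf-16(-);daf-2(-), 34.86 and 28.76 RPKM in daf-2(-), and 69.57 and 73.08 RPKM in WT. Both daf-2(-) libraries were the lowest of the 6, and the double mutant libraries both lay above the WT libraries by a small margin. The log2 fold change was -1.15 (SE 0.15, limma adjusted p = 0.00647) in daf-2(-) against WT and 1.33 (SE 0.15, limma adjusted p = 0.00189) in the double mutant against daf-2(-). The value for the double mutant against WT was 0.18 (SE 0.15, 95% interval -0.19 to 0.55).

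The direction of dao-5 is that of the median of all genes, which was lower in daf-2(-), and its size depended on how the libraries were scaled. With median-ratio scaling the value in daf-2(-) against WT was -0.85 (limma adjusted p = 0.00801). Quantile normalization gave -0.90 (limma adjusted p = 0.0129). For daf-16(-);daf-2(-) against daf-2(-) these values were 0.91 (limma adjusted p = 0.00361) and 0.99 (limma adjusted p = 0.00534). All 4 values are under a fold of 2, so the call was lost under both scalings while the sign stayed. Relative to the median of all genes the change of dao-5 was -0.87 in daf-2(-) against WT and 0.99 in the double mutant against daf-2(-). The same measure for dao-3 was 1.71 in daf-2(-) against WT and -2.15 in the double mutant against daf-2(-). Within each library the ratio of dao-3 to dao-5 was 0.724 and 1.03 in the double mutant, 6.82 and 9.07 in daf-2(-), and 1.26 and 1.32 in WT.

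The list of nucleolus and ribosome assembly genes holds 21 genes beside dao-5. In daf-2(-) against WT, 0 of the 21 were higher and 5 were lower, the log2 fold change was negative in all 21, and its median was -0.88 beside -0.28 for all genes. Relative to that median of all genes, ncl-1 (0.25) and lpd-6 (0.05) were not lower, so the sign was not shared by all 21. Between daf-16(-);daf-2(-) and daf-2(-), 16 of the 21 were higher and 0 were lower, with a median of 1.2 beside 0.34 for all genes. Between the double mutant and WT, 1 was higher, with a median of 0.30 beside 0.10 for all genes. The counts moved with the processing: 11 of the 21 were lower in daf-2(-) against WT without daf-2(-) replicate 1, against 3 without daf-2(-) replicate 2 and 0 with median-ratio scaling. With median-ratio scaling 6 of the 21 were higher in the double mutant against daf-2(-). The medians under that scaling were -0.62 and 0.79, where the median of all genes was -0.02 in both comparisons.

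In these comparisons of daf-2(-) with WT and of the double mutant with daf-2(-), the largest changes in the list after dao-5 was set aside belonged to rpoa-2 (F14B4.3), a large subunit of RNA polymerase I, which transcribes ribosomal RNA. It had 25.9 and 23.48 RPKM in the double mutant, 8.37 and 5.93 RPKM in daf-2(-), and 19.84 and 16.09 RPKM in WT. The 3 strains did not overlap. The log2 fold changes of rpoa-2 were -1.23 (SE 0.22, limma adjusted p = 0.012) in daf-2(-) against WT and 1.67 (SE 0.22, limma adjusted p = 0.00228) in the double mutant against daf-2(-). K01G5.5, the worm dyskerin, which turns uridine into pseudouridine in ribosomal RNA, had 230.24 and 210.2 RPKM in the double mutant, 87.47 and 75.03 RPKM in daf-2(-), and 181.51 and 176.02 RPKM in WT. Its log2 fold changes in the same comparisons were -1.13 (limma adjusted p = 0.00471) and 1.43 (limma adjusted p = 0.00136), beside -1.15 and 1.33 for dao-5. The ATPase genes ruvb-1 (-1.08) and ruvb-2 (-1.03) and the gene nol-16 (-1.17) were the others lower in daf-2(-) against WT. The gene called higher in the double mutant against WT was lpd-6 (log2 fold change 1.36, limma adjusted p = 0.194), with 32.17 and 11.77 RPKM in the WT libraries, and it lost the call when either double mutant library, either daf-2(-) library or WT replicate 2 was left out. The rRNA methylase gene fib-1, fibrillarin, was also uneven in WT, at 354.82 and 158.06 RPKM, against 469.22 and 441.3 RPKM in the double mutant and 197 and 174.38 RPKM in daf-2(-).

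**Figure D3:**
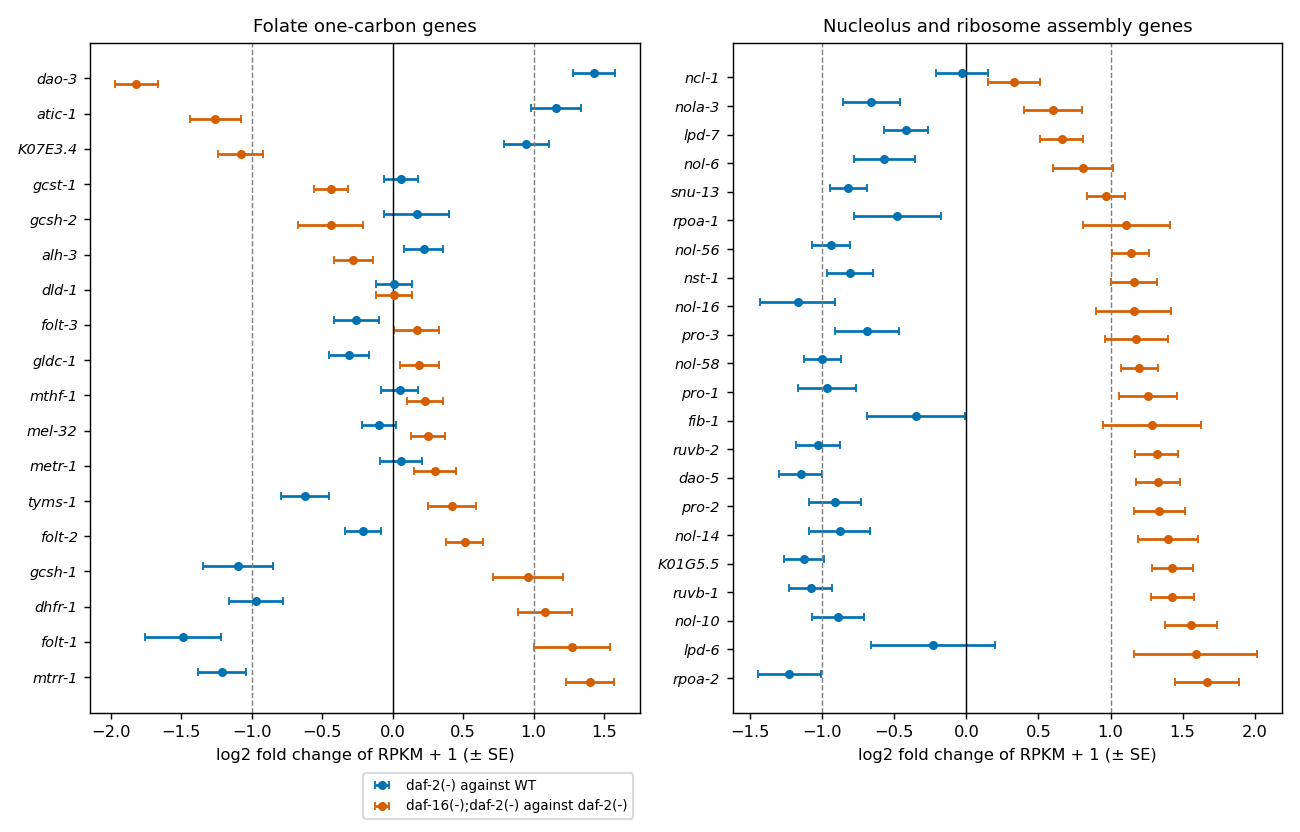
Log2 fold change of RPKM + 1 (horizontal axis, error bars SE from limma) of each gene of the folate list (left) and of the nucleolus list (right), dao-3 and dao-5 included, ordered by the change in daf-16(-);daf-2(-) against daf-2(-). Dashed lines mark a fold of 2. The folate genes lie on both sides of 0, and all 22 nucleolus genes lie below 0 in daf-2(-) against WT and above 0 in the double mutant against daf-2(-). The median of all genes, -0.28 and 0.34 in these comparisons, is not taken off.

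Most germline and oocyte markers and markers of larval moults moved in the same direction as dao-5 in the comparisons that involve daf-2(-). Sperm markers did not. Of 10 germline and oocyte markers, 0 were higher and 8 were lower in daf-2(-) against WT (median log2 fold change -1.45), and 10 were higher in daf-16(-);daf-2(-) against daf-2(-) (median 2.26). The others in daf-2(-) against WT, pgl-1 (0.18) and glh-1 (0.01), were not lower relative to the median of all genes. Limma called 7.78% of all genes lower in daf-2(-) against WT and 15.8% higher in the double mutant against daf-2(-). Baggerly's test called 6 of the 10 lower in daf-2(-) against WT and 0 higher in the double mutant against daf-2(-). Over all 20661 genes it called 231 lower and 666 higher in the same comparisons. Their summed RPKM was 2520 and 1930 in the double mutant, 574 and 449 in daf-2(-), and 1220 and 1390 in WT, and none of the 10 was at 0 in any library. Of 6 markers of moulting larvae, 4 were lower in daf-2(-) against WT and 4 were higher in the double mutant against daf-2(-), with sums of 346 and 242 RPKM in the double mutant, 134 and 102 RPKM in daf-2(-), and 371 and 271 RPKM in WT. Baggerly's test called 0 of the 6 lower and 0 higher in these comparisons. In the double mutant against WT the log2 fold change was positive in all 10 germline and oocyte markers. Their median was 0.82 and 2 were called higher, where 1.42% of all genes were. The median of the moulting markers there was -0.11, and dao-5 had 0.18. For 8 sperm markers the median was 0.48 in daf-2(-) against WT and -0.03 in the double mutant against daf-2(-). In the same comparisons it was -0.21 and 0.07 for 8 embryo markers, and -0.01 and -0.01 for 6 markers of the adult soma. These medians do not show that the members were unchanged. Of the embryo markers 2 were called lower in daf-2(-) against WT and 2 higher in the double mutant against daf-2(-). Most embryo markers were under 1 RPKM in every library. Of the adult soma markers 1 was called higher in daf-2(-) against WT, where 3 were positive and 3 negative. Their sums were uneven in WT, at 10300 and 21500 RPKM. The part of these tissues and stages in the result for dao-5 and the nucleolus genes was not tested.

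The gene dao-6 moved in the same direction as dao-3, from a much lower level. It had 5.33 and 11.35 RPKM in daf-16(-);daf-2(-), 28.44 and 24.21 RPKM in daf-2(-), and 9.62 and 13.26 RPKM in WT. Both daf-2(-) libraries stood above the 4 others, while the double mutant and WT overlapped. The log2 fold change was 1.15 (SE 0.33, limma adjusted p = 0.0461) in daf-2(-) against WT and -1.62 (SE 0.33, limma adjusted p = 0.00957) in the double mutant against daf-2(-). Double mutant libraries against WT gave -0.48 (SE 0.33, 95% interval -1.27 to 0.32).

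The gene dao-6 had the lowest level of the 5 and the largest SE (0.33). At the estimated depth its RPKM stand for about 35 to 193 reads a library, and the counting error alone is 7.2% to 16.97%. This counts reads and leaves out the variation between cultures. The call in daf-2(-) against WT was lost without daf-2(-) replicate 1 (1.03), without daf-2(-) replicate 2 (1.26) and without WT replicate 1 (0.93). The call in daf-16(-);daf-2(-) against daf-2(-) was lost without daf-2(-) replicate 1 (-1.51). Of these values only 0.93 was under a fold of 2, and the other calls were lost on the unadjusted p. Baggerly's test called dao-6 in neither comparison. With median-ratio scaling both calls were kept and the changes were larger, at 1.43 and -2.02. The ratio of dao-6 to dao-3 within a library was 0.085 and 0.146 in the double mutant, 0.12 and 0.093 in daf-2(-), and 0.11 and 0.137 in WT, so in this ratio the strains overlapped.

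The gene dao-2 was the most abundant of the 5 in every library. It had 538.8 and 577.53 RPKM in daf-16(-);daf-2(-), 418.84 and 356.26 RPKM in daf-2(-), and 738.43 and 690.55 RPKM in WT. The 3 strains did not overlap, with WT highest and daf-2(-) lowest. The log2 fold change in daf-2(-) against WT was -0.88 (SE 0.14, limma adjusted p = 0.0101), a fold of 1.84, and this passed the p but not the fold limit. It reached a fold of 2 with quantile normalization (-1.25), in Baggerly's test (-1.01) and without daf-2(-) replicate 1 (-1.0), and was -0.58 with median-ratio scaling. Set against daf-2(-), the double mutant was higher by 0.53 on the log2 scale (SE 0.14, limma adjusted p = 0.0274), and it was 0.10 (limma adjusted p = 0.669) with median-ratio scaling. Against WT the double mutant value was -0.36 (SE 0.14, limma adjusted p = 0.247).

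For dao-4 the double mutant libraries overlapped those of both other strains. It had 45.32 and 78.1 RPKM in daf-16(-);daf-2(-), 50.59 and 41.95 RPKM in daf-2(-), and 67.12 and 85.16 RPKM in WT. Both daf-2(-) libraries lay below both WT libraries, and the double mutant libraries spanned nearly the whole range. The log2 fold change in daf-2(-) against WT was -0.70 (SE 0.27, limma adjusted p = 0.0973), with a 95% interval of -1.34 to -0.07. The double mutant against daf-2(-) gave 0.36 (SE 0.27, limma adjusted p = 0.354, 95% interval -0.27 to 1.0). The sign of this value turned without double mutant replicate 2 (-0.02), after median-ratio scaling (-0.06) and after quantile normalization (-0.01). The double mutant against WT gave -0.34 (SE 0.27, limma adjusted p = 0.538), which became 0.05 without double mutant replicate 1.

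**Figure D4:**
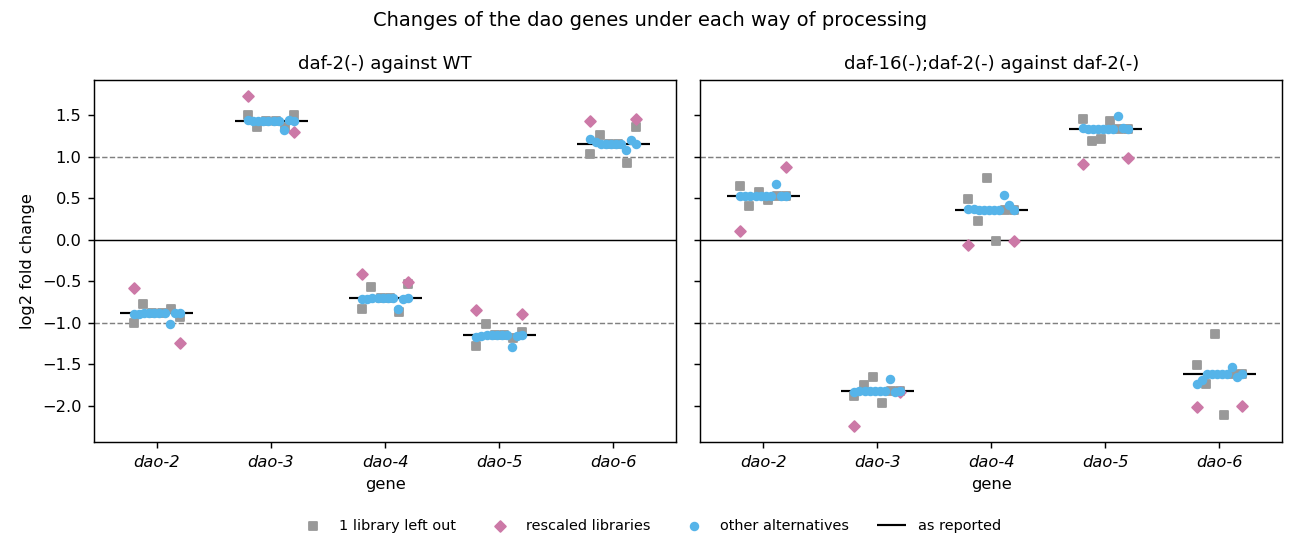
Log2 fold change (vertical axis) of the 5 dao genes in daf-2(-) against WT (left) and daf-16(-);daf-2(-) against daf-2(-) (right), as reported (black bars), with 1 library left out, with the libraries rescaled by median ratios or quantiles, and under the other alternatives. Dashed lines mark a fold of 2. All points of dao-3 lie beyond the dashed lines, the rescaled points of dao-5 lie inside them, and points of dao-4 fall on both sides of 0 on the right.

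Because RPKM is per length, the levels of the 5 genes can be set side by side within a strain. In daf-16(-);daf-2(-), dao-2 was highest and dao-6 lowest, and dao-5, dao-3 and dao-4 overlapped between them. In daf-2(-) the order was dao-2, dao-3, dao-4, dao-5 and dao-6, with no overlap between neighbours, and the closest pair was dao-5 (34.86 and 28.76 RPKM) and dao-6 (28.44 and 24.21 RPKM). In WT, dao-2 was followed by dao-3, then by dao-4 and dao-5, which overlapped, and dao-6 was again lowest. The libraries of the compared strains did not overlap for 5 of the 5 genes in daf-2(-) against WT, where 64.5% of all genes did not. They did not overlap for 4 of the 5 in the double mutant against daf-2(-), where 63.2% did not, and for 3 of the 5 in the double mutant against WT, where 48.1% did not.

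The genes with the pattern most like each dao gene were found by the root mean square difference of log2(RPKM + 1), centred on each gene's mean, over the 6 libraries and among 14390 genes. For dao-3 the nearest were Y69E1A.5 (difference 0.085), Y53G8B.1 (0.086) and bath-47 (0.1). Y69E1A.5 had 49.81 and 73.49 RPKM in daf-16(-);daf-2(-), 218.94 and 236.67 RPKM in daf-2(-), and 74.97 and 80.95 RPKM in WT. For dao-5 the nearest was prmt-1 (0.032), an arginine methyltransferase, followed by F33H2.3 (0.046) and gpr-1 (0.056), a regulator of spindle position in the early embryo. The values of prmt-1 were 370.86 and 342.36 RPKM in the double mutant, 155.01 and 132.8 RPKM in daf-2(-), and 301.53 and 320.17 RPKM in WT, about the profile of dao-5 at a higher level. For dao-6 the nearest were F55B11.4 (0.067), F54F7.3 (0.097) and T04A6.1 (0.1). For dao-2 they were mrps-12 (0.05), a mitochondrial ribosomal protein gene, F10D11.6 (0.051) and rga-2 (0.052), and for dao-4 K07A1.10 (0.037), Y43F4B.10 (0.046) and mrpl-36 (0.049), a mitochondrial ribosomal protein gene as well.

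The dauer markers col-2, col-40, cut-1 and lea-1 were set beside the dao genes because of the name that the dao genes share. Of these 4, 3 were higher in daf-2(-) against WT (median log2 fold change 3.10) and 4 were lower in daf-16(-);daf-2(-) against daf-2(-) (median -2.67). By Baggerly's test 0 of the 4 were higher in daf-2(-) against WT and 1 was lower in the double mutant against daf-2(-). Their summed RPKM was 43.9 and 32.5 in the double mutant, 158 and 201 in daf-2(-), and 54.6 and 89.7 in WT. The largest part of every sum was lea-1, the marker not called in daf-2(-) against WT (0.81, limma adjusted p = 0.0555). The other 3 were under 1 RPKM in both WT libraries and uneven in daf-2(-). Among them col-2 had 0.42 and 0.08 RPKM in WT and 13.61 and 35.56 RPKM in daf-2(-). A further listed marker, tts-1, was absent from the RPKM tables. The sums of the 4 markers moved in the direction of dao-3 and dao-6 and against that of dao-5, and their part in the dao results was not tested.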

How the data were processed

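The authors demultiplexed Illumina reads with CASAVA 1.8.2 (from the submitters' processing notes), removed adaptor sequence, mapped what remained onto WS230 with CLC Genomics Workbench and deposited RPKM for each gene and replicate, in 1 table per strain. The handling of strand and of reads matching several genes is not given in the sources used here. The deposited values hold no counts, so no count model was fitted.

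The 3 tables were joined by gene name, with 0 for a gene missing from a table, and 6 names found on more than 1 line were left out. The 20661 genes were fitted with limma 3.58.1 in R 4.3.3 on log2(RPKM + 1) with a trend (3.86 prior degrees of freedom). The fit was tested on simulated data. Annotation came from WBcel235 and RefSeq, and depth was estimated from the steps between low RPKM values. Of these values 38.2% to 41.2% were whole reads within 0.1, against a median of 16.2% to 19.6% over all depths tried. Multiples of a depth score alike, so the lowest was taken by rule. Named were all dao genes, daf-16 and sod-3, the 3 nearest genes by pattern, the nearest coding gene on each side, and called genes of the folate and nucleolus lists, with full values for at most the 4 largest changes per comparison. The values of fib-1, ncl-1, lea-1, col-2, pgl-1 and glh-1, and the counts of genes with overlapping libraries, were added after they were seen. The values of the germline and moulting markers in the double mutant against WT were added then too. So were the medians of the sperm, embryo and adult soma markers, the embryo and adult soma counts, and the adult soma sums. The members and lists were chosen with earlier results of these data known. The alternatives were other pseudocounts, filters, scalings and tests, a replicate block, and each library left out in turn.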

Additional observations from a re-analysis of the deposited data

How the results depend on the processing

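Values are log2 fold changes unless counts are named. In daf-2(-) against WT, dao-2 was called with quantile normalization (-1.25) and Baggerly's test (-1.01), dao-5 was lost with median-ratio scaling (-0.85) and quantile normalization (-0.90), and dao-6 was lost in Baggerly's test (1.08). In daf-16(-);daf-2(-) against daf-2(-), dao-5 was lost with the same scalings (0.91 and 0.99), dao-6 in Baggerly's test (-1.53), and dao-4 turned sign after median-ratio scaling (-0.06) and quantile normalization (-0.01). The cause was not tested. Called dao genes then numbered, in daf-2(-) against WT, 1 higher and 2 lower in Baggerly's test and 0 lower with median-ratio scaling, and in the double mutant against daf-2(-), 0 higher with both scalings and 1 lower in Baggerly's test.

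With 1 library left out, dao-2 ranged from -1.0 to -0.77 and dao-6 from 0.93 to 1.36 in daf-2(-) against WT. In the double mutant against daf-2(-), dao-4 ranged from -0.02 to 0.75 and dao-6 from -2.11 to -1.14. Between the double mutant and WT, dao-4 ranged from -0.73 to 0.05 and dao-6 from -0.96 to 0.01, turning sign without double mutant replicate 1. The dao genes called ranged from 1 to 2 in each direction in daf-2(-) against WT and from 1 to 2 lower in the double mutant against daf-2(-). Folate genes ranged from 1 to 2 higher in daf-2(-) against WT and from 1 to 2 lower in the double mutant against daf-2(-).

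Of the folate genes other than dao-3, in daf-2(-) against WT, 2 were higher with median-ratio scaling and 1 was lower with either scaling, and in the double mutant against daf-2(-), 0 were higher after median-ratio scaling, 1 after quantile normalization, and 1 was lower in Baggerly's test. Of the nucleolus genes other than dao-5, 0 were lower in daf-2(-) against WT with median-ratio scaling, and 6, 10 and 9 were higher in the double mutant against daf-2(-) under the median ratio, the quantiles and Baggerly's test. In the double mutant against WT, 2 nucleolus genes were higher with quantile normalization, and 0 in separate fits, in Baggerly's test and at the adjusted p.

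The nucleolus genes lower in daf-2(-) against WT ranged from 3 to 11 with 1 library left out, and those higher in the double mutant against WT from 0 to 2. The folate medians became 0.20, -0.19 and -0.22 (median-ratio, quantile, Baggerly) in daf-2(-) against WT and -0.18 and 0.39 (median-ratio, Baggerly) in the double mutant against daf-2(-), and the nucleolus medians -0.62, -0.67 and -1.06, and 0.79, 1.0 and 1.44. Leaving out 1 library moved the folate median to 0.08 in the double mutant against WT and the nucleolus median to 1.38 in the double mutant against daf-2(-). Sign also turned for lpd-6 (0.05, 0.08, 0.07 and 0.46) and daf-16 (0.11 and 0.09) in daf-2(-) against WT with the scalings or a library left out, and for fib-1 (0.23) without WT replicate 1. With 1 library left out fib-1 ranged from -0.93 to 0.23 and lpd-6 from -0.92 to 0.46.

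Over all genes, counts of higher and lower calls in daf-2(-) against WT were 999 and 1607, but 1621 and 708 with median-ratio scaling. Between the double mutant and daf-2(-) they were 3267 and 1168, but 1573 and 2061. Baggerly's test called 202 and 231 in daf-2(-) against WT, and 666 and 272 in the double mutant against daf-2(-). The lower calls in daf-2(-) against WT were 2388 without daf-2(-) replicate 1 and 753 without daf-2(-) replicate 2. The replicate block changed no dao call (dao-3 1.43 and -1.82). Deviations of same-numbered libraries correlated at -0.16, 0.16 and 0.11, so the numbers were not taken as pairs. The deposited values carry no counts, and the counting error at the estimated depth is largest for dao-6.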

Other observations

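The other genes next to the dao genes were measured too. Beside dao-4 on chromosome X lies col-176, a cuticle collagen gene, 1239 bases away on the same strand. It had 97.55 and 76.99 RPKM in daf-16(-);daf-2(-), 294.06 and 296.88 RPKM in daf-2(-), and 36.52 and 25.57 RPKM in WT. The 3 strains did not overlap. The log2 fold change of col-176 was 3.23 (limma adjusted p = 0.000631) in daf-2(-) against WT, where dao-4 itself had -0.70 and was not called, and 1.47 (limma adjusted p = 0.062) in the double mutant against WT.

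The gene rsa-1, a regulatory subunit of protein phosphatase 2A that acts at centrosomes, overlaps dao-5 on the opposite strand over 0.2% of the dao-5 exon bases. It had 61.26 and 72.02 RPKM in the double mutant, 22.04 and 17.88 RPKM in daf-2(-), and 36.02 and 49.8 RPKM in WT. Both daf-2(-) libraries were lowest, as for dao-5. The log2 fold changes of rsa-1 were -1.06 (limma adjusted p = 0.0152) in daf-2(-) against WT and 1.69 (limma adjusted p = 0.00203) in the double mutant against daf-2(-), and the value of -1.06 became -0.77, under 2-fold, with either scaling. Reads of overlapping genes on opposite strands cannot be told apart where strand is not used.

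The ephrin receptor gene vab-1, 8538 bases from dao-2, was 1.49 higher in the double mutant than in daf-2(-) (limma adjusted p = 0.00244), where dao-2 had 0.53. The genes nearest to dao-6, C07A9.12 and hlh-4, were not called in any comparison. Nor were M03A1.8, 331 bases from dao-2 on its other side, ZC373.5, 896 bases from dao-4, and lid-1 (C25A1.12), 376 bases from dao-5.

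Sperm markers were counted apart from the germline and oocyte markers. Of 8, 0 were called by limma and 0 by Baggerly's test in any comparison. An unadjusted limma p under 0.05 was found for 4 in the double mutant against WT, where 19.2% of all genes had one. It was found for 5 in daf-2(-) against WT and 0 in the double mutant against daf-2(-), where the share of all genes was not counted. The log2 fold change was positive in 7 of the 8 in daf-2(-) against WT, 2 in the double mutant against daf-2(-) and 8 in the double mutant against WT. Their summed RPKM was 381 and 529 in the double mutant, 588 and 440 in daf-2(-), and 326 and 367 in WT.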
